A study of Homo sapiens with 20 samples.

Results

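FAM72A, FAM72B, FAM72D and SRGAP2 are 4 genes of chromosome 1, measured here in rhabdomyosarcoma cells whose KDM4 demethylases were inhibited or knocked down. They were taken by gene symbol, 1 probe set each, from 17687 genes with a named probe set, and were chosen because FAM72 genes fell with the inhibitor QC6352 in both cell lines. All values of QC6352 against its vehicle in these genes therefore describe the choice and carry no test. Another FAM72 gene, FAM72C, and the related SRGAP2B, SRGAP2C, SRGAP1 and SRGAP3 also have a named probe set and are given beside them.

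Rh30 and Rh41 are cell lines of alveolar rhabdomyosarcoma, a childhood tumour with muscle features, and both carry a PAX3-FOXO1 fusion. Gene expression was read on 20 Clariom S arrays in 8 groups. Rh30 carried a control hairpin (shControl) or a hairpin against KDM4B (shKDM4B) for 72 h, with 2 arrays each, or received control siRNA (siControl) or siRNA against KDM4C (siKDM4C) for 72 h, with 2 arrays each. Rh30 and Rh41 received the vehicle DMSO or QC6352, an inhibitor of the KDM4 enzymes, at 200 nM for 48 h, with 3 arrays in each of these 4 groups. The hairpin group is set apart by 1 label with no second hairpin or rescue named, and the labels call the arrays of a group biological replicates without naming separate cultures, so the p-values measure the spread between these arrays alone. In such extracts, fewer cells of a type and less RNA per cell cannot be told apart.

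The FAM72 genes encode small, closely similar proteins that dividing cells express, and FAM72A binds the uracil DNA glycosylase UNG and lowers its amount, which in B cells turns the repair of deaminated cytosines toward mutation. SRGAP2 encodes an F-BAR protein that bends membranes and stimulates the GTPase activity of Rac. It takes part in cell protrusion, migration and the maturation of synapses, and SRGAP proteins act with Slit ligands and Robo receptors. The human genome holds several copies of the FAM72 and SRGAP2 pair, and the protein of SRGAP2C, a partial copy, binds SRGAP2 and inhibits it. KDM4 enzymes remove methyl groups from lysine residues of histone H3.

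In the gene table used here (GRCh38.p14), FAM72A lies at chromosome 1, 206186179 to 206205773, and SRGAP2 at 206203541 to 206464436. These annotated spans overlap. From the FAM72A start used below, the first of 4 given, the genes run away from each other, with starts 702 bases apart. FAM72A is on the minus strand and SRGAP2 on the plus strand. FAM72B lies at 121167646 to 121184340 and its span ends 635 bases before that of SRGAP2C (121184975 to 121392874). FAM72D lies at 145094296 to 145112696 and overlaps the annotated span of SRGAP2B (144887288 to 145095380). The starts of the windows used below lie 646 bases apart, on opposite strands. FAM72C lies at 143955287 to 143973564 and overlaps the pseudogene SRGAP2D (143972639 to 144069704).

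The promoters are shown because the FAM72 differences had a common direction within each treatment comparison, while SRGAP2, which starts close to FAM72A, gave smaller differences. Each sequence holds 250 bases before and 30 bases from a RefSeq gene start (GRCh38.p14), read 5′ to 3′ on the strand of its gene. Capitals mark CCAAT, the box bound by NF-Y, which reads ATTGG on the other strand. They also mark TTTGAA, a form of the cell cycle genes homology region, which on the other strand reads TTCAAA. The regions are chr1:206202810-206203089 (minus strand) for FAM72A, chr1:145095724-145096003 (plus strand) for FAM72D and chr1:206203291-206203570 (plus strand) for SRGAP2.
FAM72A: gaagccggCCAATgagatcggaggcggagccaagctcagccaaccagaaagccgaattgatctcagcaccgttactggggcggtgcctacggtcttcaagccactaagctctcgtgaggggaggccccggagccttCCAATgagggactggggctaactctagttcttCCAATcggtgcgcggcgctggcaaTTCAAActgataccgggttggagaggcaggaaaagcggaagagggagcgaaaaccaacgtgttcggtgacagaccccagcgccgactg
FAM72D: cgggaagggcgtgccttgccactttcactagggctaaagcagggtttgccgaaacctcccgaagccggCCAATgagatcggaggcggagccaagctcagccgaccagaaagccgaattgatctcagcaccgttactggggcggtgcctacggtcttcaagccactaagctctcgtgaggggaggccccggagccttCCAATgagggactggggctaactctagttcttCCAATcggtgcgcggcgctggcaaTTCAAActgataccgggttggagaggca
SRGAP2: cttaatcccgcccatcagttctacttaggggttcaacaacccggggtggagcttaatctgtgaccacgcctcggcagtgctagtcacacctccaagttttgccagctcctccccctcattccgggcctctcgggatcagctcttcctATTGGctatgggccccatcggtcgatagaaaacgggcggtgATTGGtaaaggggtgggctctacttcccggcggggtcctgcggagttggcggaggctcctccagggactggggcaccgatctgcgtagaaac

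The table gives 4 start windows for FAM72A, of which its first is shown, and 3 for FAM72D, of which the one sharing the longest run with it is shown. Over the 240 bases that the full 300-base windows of FAM72A and FAM72D share, identity was 99.58%, with the single substitution A42G, counted from 1 at the 5′ end of the FAM72A window and with the FAM72A base first. FAM72C carried the same A42G as its single difference from FAM72A over 269 bases (99.63%). SRGAP2 differed from SRGAP2B by C265A alone over 296 bases (99.66%, counted from the 5′ end of the SRGAP2 window) and from SRGAP2C at 21 of 269 bases (92.19% identity). The promoter of FAM72B was not analysed here. The probe sequences of the array were not used here either, so how far the probe sets of such close copies read each other's RNA was not tested, and their values are not separate measurements to a known degree.

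A set of 6 motifs was searched on both strands of the 300-base windows. They were the NF-Y box CCAAT, the cell cycle region as TTTGAA or in its other form TTCGAA, the E2F core GCGGGA, the GC box of the letters GGGCGG and the MYOD type of E-box, spelt CAGCTG. FAM72A, FAM72C and FAM72D each held 3 CCAAT boxes, 1 TTTGAA and 1 GGGCGG. In the FAM72A window the CCAAT boxes began at -242, -114 and -82 and the TTTGAA at -58 relative to the gene start. SRGAP2, SRGAP2B and SRGAP2C each held 2 CCAAT boxes, 1 GCGGGA and 2 GGGCGG, of which 1 overlaps the GCGGGA. Of 35116 promoter windows of the table, 34.6% held CCAAT, 3.26% held it at least 3 times, 15.2% held TTTGAA and 5.9% held both. GGGCGG was in 45.0%, GCGGGA in 26.9%, CAGCTG in 17.9% and TTCGAA in 1.4%. These are matches of letters, with no binding measured.

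The labels of 10 Rh30 arrays, those of siRNA, DMSO and QC6352, name 1 group in the title and another in the sample name. Groups follow the titles here, with 1 exception. The title of siKDM4C replicate 2 reads shRNA where its source name reads siKDM4C, and it was grouped by the source name. It is the array with the highest FAM72A, FAM72B and FAM72D of all 20. The results of the 4 genes that rest on these arrays are also given by sample name. Array medians were 6.72 to 6.75 log2 in the 4 siControl and siKDM4C arrays, 6.95 to 6.99 in the other 10 of Rh30 and 7.22 to 7.25 in the 6 of Rh41, and background probe sets had medians of 3.64 to 4.01. KDM4B was lower in the 2 arrays with its hairpin (6.01 and 6.15 log2) than in the control hairpin arrays (6.74 and 7.30), by 0.94 ± 0.23 SE (limma adjusted p = 0.0120). KDM4C was at 6.25 and 6.32 with its siRNA against 6.48 and 6.54, a difference of -0.23 ± 0.19 (adjusted p = 0.651). All 9 muscle and rhabdomyosarcoma markers had a median over 7 log2 (MYOD1 8.70 to 10.32), and of the markers of other cells 0 of 4 epithelial, 0 of 3 blood, 0 of 3 endothelial and 2 of 5 fibroblast markers did. EPCAM (3.60 to 4.43), CDH1 (3.26 to 4.73), PTPRC (3.41 to 4.22) and LUM (3.41 to 4.16) lay near background. KRT5 (median 6.29), CD14 (6.29), PECAM1 (6.68), CDH5 (5.83) and VWF (6.86) lay above it. COL1A1 (median 7.39) and COL1A2 (8.37) were the fibroblast markers with a median over 7. Single arrays differed from these medians. The lowest array lay below 7 for the muscle markers MYF5 (4.30), MYMK (5.90) and CHRNG (5.99). The highest lay above 7 for PDGFRA (8.08), a fibroblast marker, and for PECAM1 (7.72) and VWF (7.24).

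With QC6352 the FAM72 probe sets were several times lower in both lines, and the SRGAP2 probe set was not. FAM72A, the gene of the UNG partner, was at 9.63, 9.14 and 9.21 log2 in Rh30 with DMSO and at 6.61, 5.92 and 5.83 with QC6352. In Rh41 it was at 9.61, 9.60 and 9.68 with DMSO and at 6.87, 7.08 and 6.76 with QC6352. Every QC6352 array lay more than 2 log2 units below every DMSO array of its line. The difference was -3.21 ± 0.19 SE in Rh30 (9.23-fold) and -2.73 ± 0.19 in Rh41 (6.63-fold), with 3 and 3 arrays each. These differences rank 18th and 6th among the falls of all 17687 genes.

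FAM72B, a copy whose protein closely resembles that of FAM72A, was at 9.75, 9.36 and 9.40 log2 with DMSO and 6.64, 6.15 and 6.06 with QC6352 in Rh30. Its values in Rh41 were 9.87, 9.75 and 9.87 with DMSO and 7.10, 7.51 and 7.26 with QC6352. The groups lay apart in both lines, by -3.22 ± 0.17 SE in Rh30 and -2.54 ± 0.17 in Rh41. FAM72D, another of the copies, was at 9.86, 9.91 and 9.94 with DMSO and 7.22, 7.16 and 6.99 with QC6352 in Rh30. In Rh41 FAM72D was at 10.05, 10.05 and 10.01 with DMSO and 7.17, 7.59 and 7.57 with QC6352. Its differences were -2.78 ± 0.12 in Rh30 and -2.59 ± 0.12 in Rh41, so that QC6352 left its arrays between 6.99 and 7.59 in both lines. FAM72C, which is related but not among the 4 genes, differed by -2.60 ± 0.13 in Rh30 and -2.45 ± 0.13 in Rh41.

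All 3 FAM72 members and FAM72C were lower in each line with no overlap between groups, where 19.5% of all genes were lower without overlap in Rh30 and 18.3% in Rh41. Since these contrasts chose the genes, nothing is read from those shares. Over all 20 arrays, the 6 QC6352 arrays held FAM72A at 5.83 to 7.08 (median 6.68), against 8.62 to 10.17 (median 9.45) in the other 14. The corresponding ranges of FAM72B were 6.06 to 7.51 and 8.90 to 10.27, and those of FAM72D 6.99 to 7.59 and 9.30 to 10.29. With QC6352 FAM72A, FAM72B and FAM72C were lower in every Rh30 array than in every Rh41 array on the deposited scale, on which all Rh41 arrays have higher medians, and the FAM72D values of the lines overlapped. The mean of the muscle marker list, whose part in these differences was not tested, was 8.72 to 8.90 log2 in the Rh30 arrays with QC6352 and 9.83 to 9.84 with DMSO. In Rh41 it was 9.27 to 9.37 with QC6352 and 9.23 to 9.33 with DMSO.

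**Figure D1:**
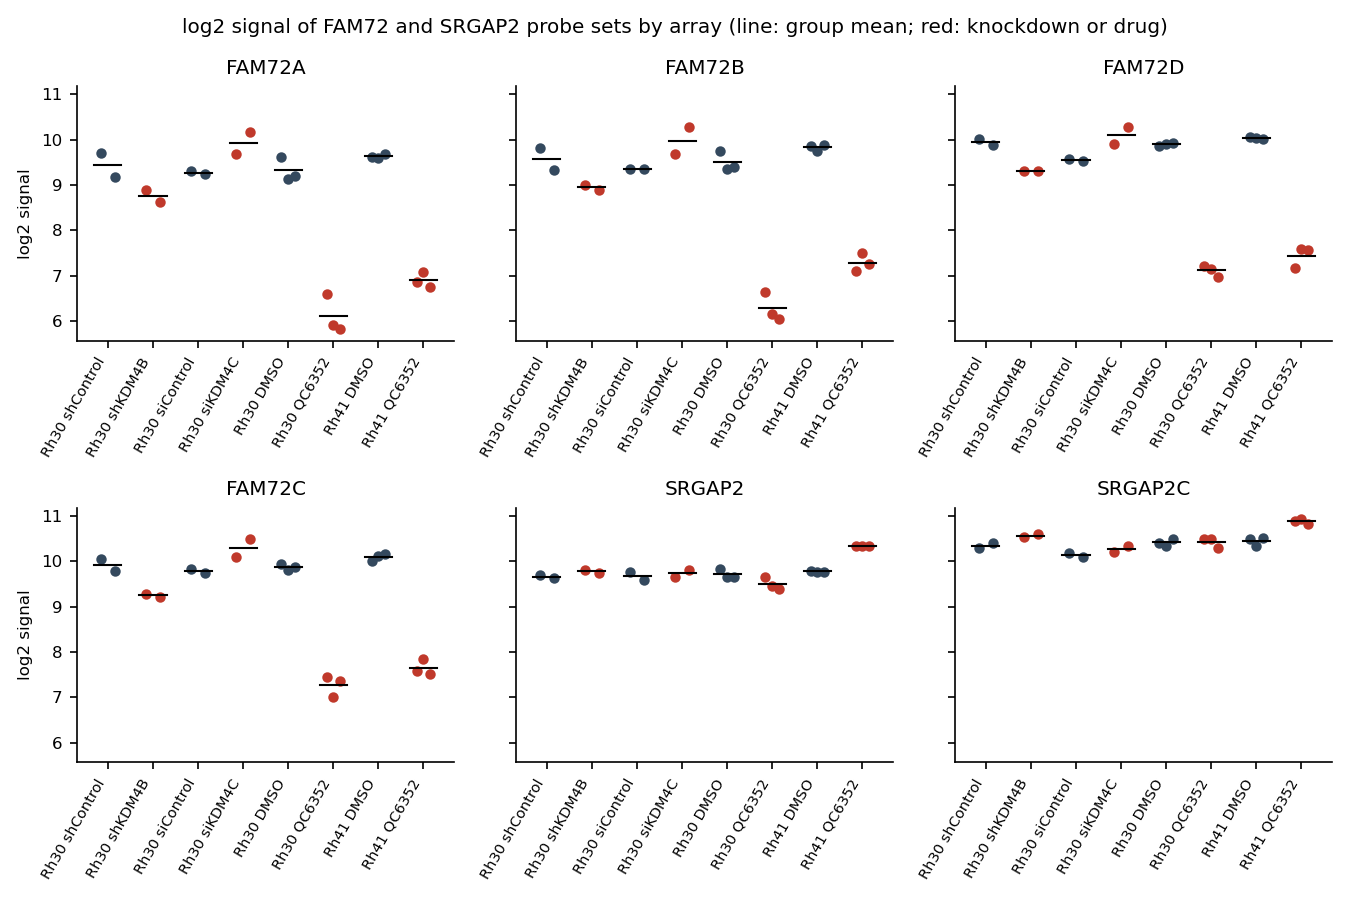
Log2 signal (vertical axis) of 6 FAM72 and SRGAP2 probe sets in each of 20 arrays, by group on the horizontal axis; points are arrays, lines are group means, and red marks a knockdown or QC6352. The FAM72A points with QC6352 lie at 5.83 to 7.08 against 8.62 to 10.17 in all other groups, and SRGAP2 is highest in Rh41 with QC6352.

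SRGAP2, the membrane-bending partner across the promoter, was at 9.83, 9.64 and 9.66 log2 with DMSO and 9.66, 9.46 and 9.40 with QC6352 in Rh30. In Rh41 it was at 9.78, 9.76 and 9.77 with DMSO and at 10.33, 10.34 and 10.34 with QC6352. The Rh30 groups overlapped, with a difference of -0.21 ± 0.09 SE, and the Rh41 groups lay apart by 0.56 ± 0.09. It ranked 3969th among the falls of Rh30 and 772nd among the rises of Rh41. The Rh41 difference of SRGAP2 is 0.56 where that of FAM72A, whose start used here is 702 bases away, is -2.73.

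The partial copies SRGAP2B and SRGAP2C, which the rule did not choose, were tested. In Rh41 SRGAP2B rose by 0.41 ± 0.09 SE (limma adjusted p = 0.00228) and SRGAP2C by 0.43 ± 0.09 (adjusted p = 0.00179), where 10.9% of all genes rose. In Rh30 their differences were 0.05 ± 0.09 (adjusted p = 0.721) and 0.02 ± 0.09 (adjusted p = 0.920). The response in Rh41 minus that in Rh30 was 0.36 ± 0.13 for SRGAP2B (adjusted p = 0.0477) and 0.42 ± 0.13 for SRGAP2C (adjusted p = 0.0252), a test chosen after the data were seen that 20% of all genes passed. Whether, and how far, these probe sets also read SRGAP2 itself was not tested. SRGAP1, a related gene whose protein acts downstream of Robo, fell by 1.20 ± 0.15 in Rh30 (adjusted p = 4.45e-06), whereas its difference in Rh41 was 0.07 ± 0.15 (adjusted p = 0.841). SRGAP3 differed by -0.04 ± 0.13 and 0.06 ± 0.13, with adjusted p of 0.864 and 0.826 and levels of 4.70 to 6.10.

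**Figure D2:**
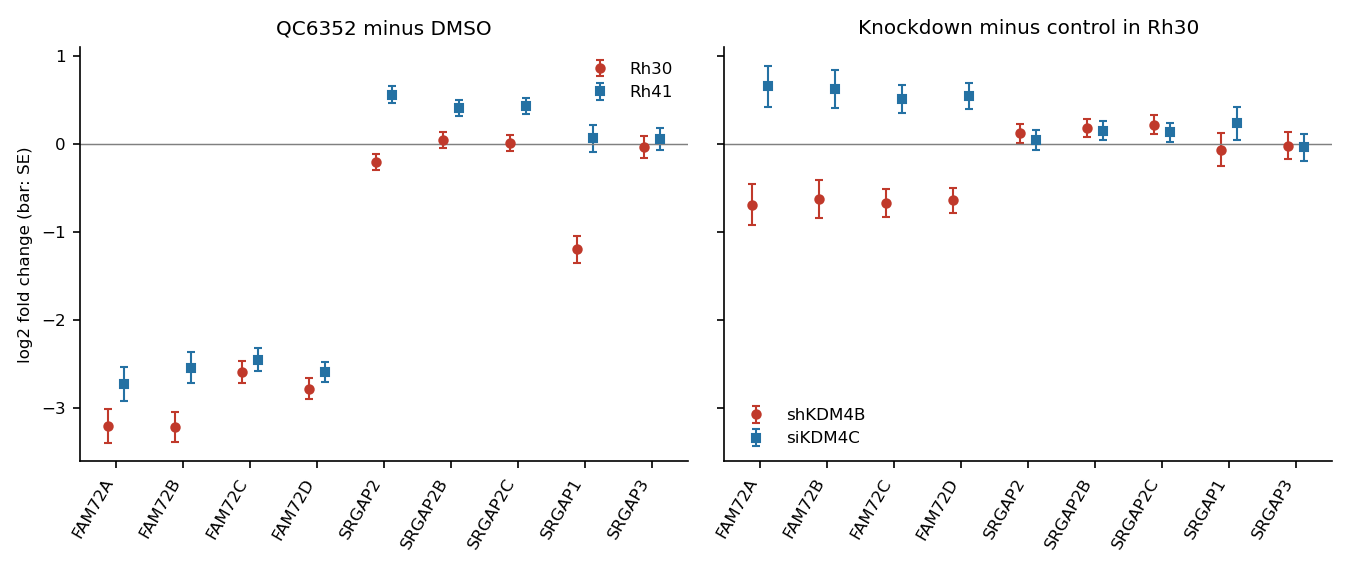
Log2 fold change (vertical axis) of FAM72 and SRGAP probe sets, with bars of 1 SE, for QC6352 against DMSO in Rh30 and Rh41 (left, 3 and 3 arrays each) and for both knockdowns against their controls in Rh30 (right, 2 and 2 arrays each). The 4 FAM72 genes lie between -3.22 and -2.45 with QC6352, between -0.69 and -0.62 with shKDM4B and between 0.51 and 0.66 with siKDM4C, and SRGAP2 lies between -0.21 and 0.56 throughout.

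By sample name the Rh30 result turns. The arrays given here as siKDM4C replicate 2 and DMSO replicates 1 and 2 then stand as QC6352, and FAM72A in them was at 10.17, 9.63 and 9.14 log2. The difference from DMSO in Rh30 became 0.24 for FAM72A, 0.33 for FAM72B, 0.35 for FAM72D and 0.09 for SRGAP2. SRGAP1 stood at 0.02 (limma adjusted p = 0.969). The 3 arrays with low FAM72A are, by sample name, siControl replicate 2 and both arrays of siKDM4C. The Rh41 labels do not conflict, and the Rh41 values of the 4 genes are the same under both groupings. The 4 arrays titled siControl and siKDM4C, with medians of 6.72 to 6.75 log2, are by sample name DMSO replicates 1 to 3 and QC6352 replicate 1. KDM4A, which was higher with QC6352 in Rh41, was at 8.54 to 8.78 in the Rh30 arrays titled QC6352. It was at 8.08 to 8.23 in those titled DMSO. Which labels are right was not tested. Over all genes 6427 passed the threshold for QC6352 in Rh30 by title and 89 by sample name, and the other genes named below follow the titles.

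The KDM4B hairpin, whose arrays carry labels that do not conflict, asks whether the FAM72 genes also differ with a hairpin against KDM4B. It was not used to choose them. KDM4D was higher with this hairpin, at 5.09 and 5.78 log2 against 4.23 and 4.75, by 0.94 ± 0.28 SE (limma adjusted p = 0.0343), with its controls near background. KDM4A and KDM4C differed by 0.02 and -0.27 (adjusted p = 0.966 and 0.445). FAM72D was at 10.02 and 9.87 log2 with the control hairpin and at 9.30 and 9.30 with the KDM4B hairpin. The groups lay apart and FAM72D fell by 0.64 ± 0.14 SE (limma adjusted p = 0.00553, n = 2 and 2 arrays), to 1.56-fold less. FAM72C fell as well, by 0.67 ± 0.16 (adjusted p = 0.00799). Without shControl replicate 1 the adjusted p of FAM72D was 0.0639 and that of FAM72C 0.103, and without shKDM4B replicate 2 that of FAM72C was 0.0723. In a fit of the 4 hairpin arrays alone that of FAM72C was 0.0511. With the other arrays grouped by sample name, which leaves these differences as they are and widens the pooled spread, the adjusted p was 0.645 for FAM72D and 0.582 for FAM72C.

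FAM72A was at 9.71 and 9.18 log2 with the control hairpin and at 8.89 and 8.62 with the KDM4B hairpin. All hairpin arrays were below all controls, and the difference of -0.69 ± 0.24 SE missed the threshold (limma adjusted p = 0.0676, 95% interval -1.18 to -0.20). FAM72B was at 9.83 and 9.33 against 9.01 and 8.90, a difference of -0.62 ± 0.21 (adjusted p = 0.0676) whose groups did not overlap either. Without shControl replicate 2 the differences were -0.95 and -0.87 and passed the threshold (adjusted p = 0.0384 and 0.0358), and without shControl replicate 1 they were -0.42 and -0.38 (adjusted p = 0.433 and 0.441). Both also passed in 3 of the other alternatives. SRGAP2 was at 9.69 and 9.62 against 9.81 and 9.75, with a difference of 0.12 ± 0.11 (adjusted p = 0.596, 95% interval -0.12 to 0.36).

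With the KDM4B hairpin 1 of the 4 members passed the threshold, beside 11.6% of all genes. All 3 FAM72 members were lower with no overlap between groups, beside 22.9% of all genes. A lack of overlap was not particular to them. The groups of SRGAP2, SRGAP2B and SRGAP2C, which were higher, and of SRGAP1, which was lower, did not overlap either. The mean of the muscle marker list was also lower with the hairpin, at 9.20 to 9.26 log2 against 9.66 to 9.77, and its part in these differences was not tested. The differences of SRGAP2B, SRGAP2C, SRGAP1 and SRGAP3 were 0.18, 0.22, -0.06 and -0.02, with adjusted p of 0.344, 0.240, 0.899 and 0.970. The FAM72 differences with the hairpin lay between -0.69 and -0.62, and those with QC6352 in Rh30 between -3.22 and -2.60. These contrasts share no arrays, but time and means of treatment differ between them, and their difference was not tested.

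With siRNA against KDM4C the FAM72 probe sets were higher, not lower, and none passed the threshold. FAM72A was at 9.30 and 9.24 log2 with siControl and at 9.68 and 10.17 with siKDM4C, a difference of 0.66 ± 0.24 SE (limma adjusted p = 0.204). FAM72B was at 9.36 and 9.34 against 9.69 and 10.27, which differ by 0.63 ± 0.21 (adjusted p = 0.177). FAM72D was at 9.58 and 9.52 against 9.92 and 10.29, which differ by 0.55 ± 0.14 (adjusted p = 0.0879). In each of these genes both siKDM4C arrays were above both controls, and siKDM4C replicate 2 was the highest of all 20 arrays. SRGAP2 overlapped, at 9.77 and 9.59 against 9.65 and 9.81 (0.05 ± 0.11, adjusted p = 0.912, 95% interval -0.19 to 0.29).

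So 0 of the 4 members passed with siKDM4C, beside 0.458% of all genes. At an unadjusted limma p under 0.05 there were 3 of 4, and the share of all genes at that level was not counted. The 3 FAM72 members were higher without overlap, beside 22% of all genes. FAM72C differed by 0.51 ± 0.16 (adjusted p = 0.132). Without siKDM4C replicate 1, FAM72B passed with 0.92 (adjusted p = 0.0233) and FAM72D with 0.73 (adjusted p = 0.00882), and FAM72A was at 0.90 (adjusted p = 0.0517). Without siKDM4C replicate 2 the differences were 0.33 for FAM72B (adjusted p = 0.814), 0.36 for FAM72D (0.580) and 0.41 for FAM72A (0.806). By sample name the differences were -2.03 for FAM72A (adjusted p = 0.231), -1.92 for FAM72B (0.258) and -1.51 for FAM72D (0.264), so their direction follows the choice of labels.

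In the vehicle the lines differed little in these genes. FAM72A was at 9.32 ± 0.27 log2 (SD, n = 3) in Rh30 with DMSO and 9.63 ± 0.04 in Rh41, a difference of 0.31 ± 0.19 SE (limma adjusted p = 0.181). FAM72B differed by 0.33 ± 0.17 (adjusted p = 0.119), FAM72D by 0.13 ± 0.12 (adjusted p = 0.347) and SRGAP2 by 0.06 ± 0.09 (adjusted p = 0.585). The FAM72D arrays of the lines did not overlap (9.86 to 9.94 in Rh30, 10.01 to 10.05 in Rh41). Those of FAM72A, FAM72B and SRGAP2 did. Of the 4 members, 0 passed the threshold and 0 had an unadjusted p under 0.05, where 57.6% of all genes passed the threshold. By sample name the differences were 0.23, 0.37, 0.36 and 0.10, with adjusted p of 0.642, 0.458, 0.434 and 0.375. These arrays are also the controls of the drug contrasts. Scaling shifted the median difference over all genes here by -0.21 (quantile) and -0.26 (median centring), and the share of higher calls went from 70.7% to 49.1% and 45.9%.

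Under quantile normalization and centring the differences between the lines shrank to 0.03 and 0.05 for FAM72A, and turned to -0.14 and -0.12 for FAM72D. SRGAP2 turned to -0.23 with quantile normalization (limma adjusted p = 0.0328) and -0.19 with centring (adjusted p = 0.0930). SRGAP2B was higher in Rh41 by 0.31 ± 0.09 SE as deposited (adjusted p = 0.00637) and by 0.05 under both scalings (adjusted p = 0.651 and 0.665). SRGAP1 was higher in Rh41 by 1.75 ± 0.15 (adjusted p = 1.40e-08) and SRGAP3 by 0.95 ± 0.13 (adjusted p = 2.90e-06).

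The order of the group means was the same for FAM72A, FAM72B, FAM72C and FAM72D. It ran from siKDM4C through Rh41 with DMSO, shControl, Rh30 with DMSO, siControl, shKDM4B and Rh41 with QC6352 down to Rh30 with QC6352. Among the first 5 groups of FAM72A neighbouring groups overlapped, at means of 9.93, 9.63, 9.45, 9.32 and 9.27 log2. The hairpin group followed at 8.76 and lay below all arrays of siControl, and the QC6352 groups at 6.90 and 6.12 lay below all others and apart from each other. SRGAP2 had its highest mean in Rh41 with QC6352 (10.34 ± 0.01 SD, n = 3), above every other array. Its other 7 means lay between 9.50 and 9.78, and each overlapped its neighbours.

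Within the groups, arrays with a high FAM72A also tended to have a high FAM72B and SRGAP2. The deviations of the 20 arrays from their group means gave a Pearson r of 0.945 between FAM72A and FAM72B, the highest of FAM72A with any of the 17686 other genes. Between FAM72A and SRGAP2 it was 0.867, which is 38th. With FAM72C it was 0.752 and with FAM72D 0.476, beside a median of -0.035 and a 95th percentile of 0.639 over all genes. The 6 pairs of FAM72 genes ran from 0.433 to 0.945, and the 4 pairs of a FAM72 gene with SRGAP2 from 0.443 to 0.867. The points share arrays, their scaling and their RNA, and similar probe sequence may add to the FAM72 pairs, which was not tested. In groups of 2 arrays the deviations are mirror images, so the 20 points hold fewer independent values. In Rh41 SRGAP2 deviated by only -0.008 to 0.010, where FAM72A ran from -0.146 to 0.180, so its r with FAM72A rests on the Rh30 arrays.

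**Figure D3:**
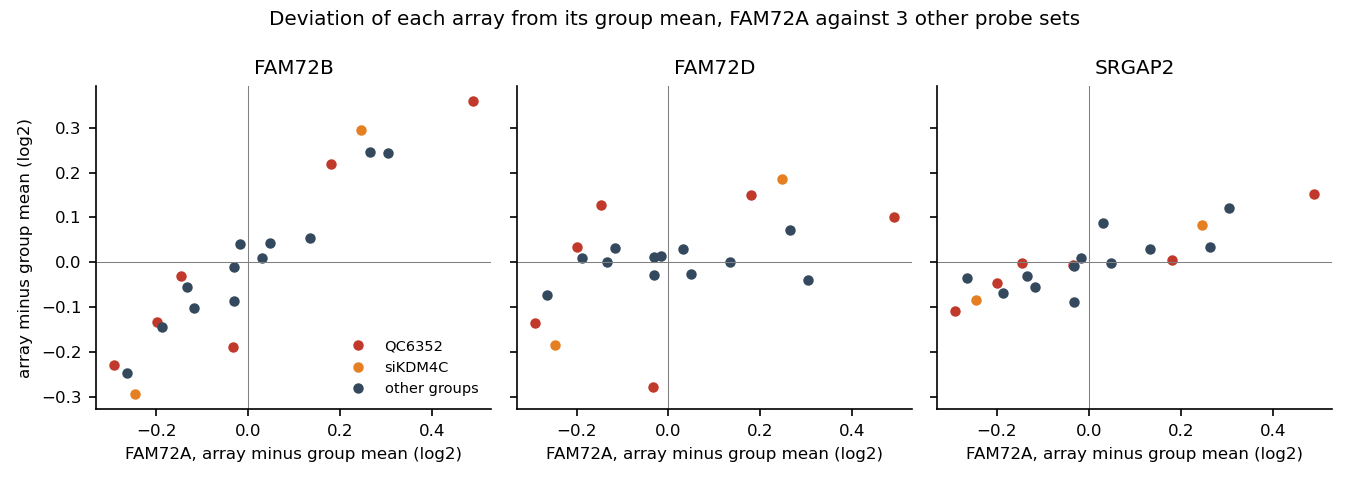
Deviation of each of the 20 arrays from its group mean (log2), FAM72A on the horizontal axis and FAM72B, FAM72D or SRGAP2 on the vertical axis, with QC6352 and siKDM4C arrays coloured. The points of FAM72B (r = 0.945) and SRGAP2 (r = 0.867) lie closer to a line than those of FAM72D (r = 0.476).

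Across the 20 arrays, the genes most like the mean of the 4 FAM72 probe sets were CLCN5, a chloride and proton exchanger (r = 0.973), RPA3, a subunit of the single-strand DNA binding protein RPA (0.972), DHX32 (0.967), the replication-dependent histone gene H3C11 (0.962), PRKACB, a catalytic subunit of protein kinase A (0.959), and SLC35B3 (0.958). The FAM72 mean is itself far lower with QC6352, the contrast that chose the FAM72 genes. Genes so like it are therefore lower there by selection, and nothing is read from that. The differences in Rh30 and Rh41 were -3.59 and -2.78 for CLCN5, -2.79 and -2.16 for RPA3 and -3.12 and -2.33 for H3C11. Over the 14 Rh30 arrays the list was led by NMRK1 (r = 0.993; -4.44 and -3.48), ZEB1 (0.990; -2.64 and -0.51) and XPR1 (0.989; -1.77 and 0.14). The 14 Rh30 arrays alone therefore rank other genes first, some of which differed much less in Rh41. SRGAP2 was most like ZNF148 (r = 0.927), MTFR1 (0.908) and its own copy SRGAP2B (0.898) over 20 arrays, and PLS3 (0.919) over the 14 of Rh30. These correlations describe arrays that share groups and scaling.

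Among 14 measured genes nearest the FAM72 genes and SRGAP2, outside both families, 3 rose and 0 fell with QC6352 in each line. Of all genes, 19.9% rose and 16.5% fell in Rh30, and 10.9% and 8.80% in Rh41. The lowest difference of the 14 was -0.23. Falls as large as that of FAM72A, 18th in Rh30 and 6th in Rh41 among 17687 genes, are rare. Nothing is read from their absence in 14 genes, some of which lie far from the FAM72 genes. At an unadjusted limma p under 0.05 the counts were 4 higher and 0 lower in Rh30 and 3 higher and 0 lower in Rh41. The share of all genes at that level was not counted. NBPF15 lies between FAM72C and FAM72D, 447826 bases beyond FAM72C. It rose by 0.92 ± 0.12 SE in Rh30 (limma adjusted p = 4.83e-06) and by 0.64 ± 0.12 in Rh41 (adjusted p = 0.000753). GPR89A, which encodes an anion channel of the Golgi apparatus and lies 495292 bases beyond FAM72D, rose by 0.61 ± 0.13 and 0.62 ± 0.13. RASSF5, a Ras effector gene 43095 bases beyond SRGAP2, rose by 1.77 ± 0.09 in Rh30 (adjusted p = 3.61e-11) and differed by -0.14 ± 0.09 in Rh41 (adjusted p = 0.381). IKBKE, a kinase gene of innate immunity 6040 bases beyond SRGAP2, differed by 0.06 and -0.04 (adjusted p = 0.699 and 0.874). With the KDM4B hairpin RASSF5 rose by 1.21 ± 0.12 (adjusted p = 1.95e-06) and EIF2D fell by 0.48 ± 0.13 (adjusted p = 0.0169).

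**Figure D4:**
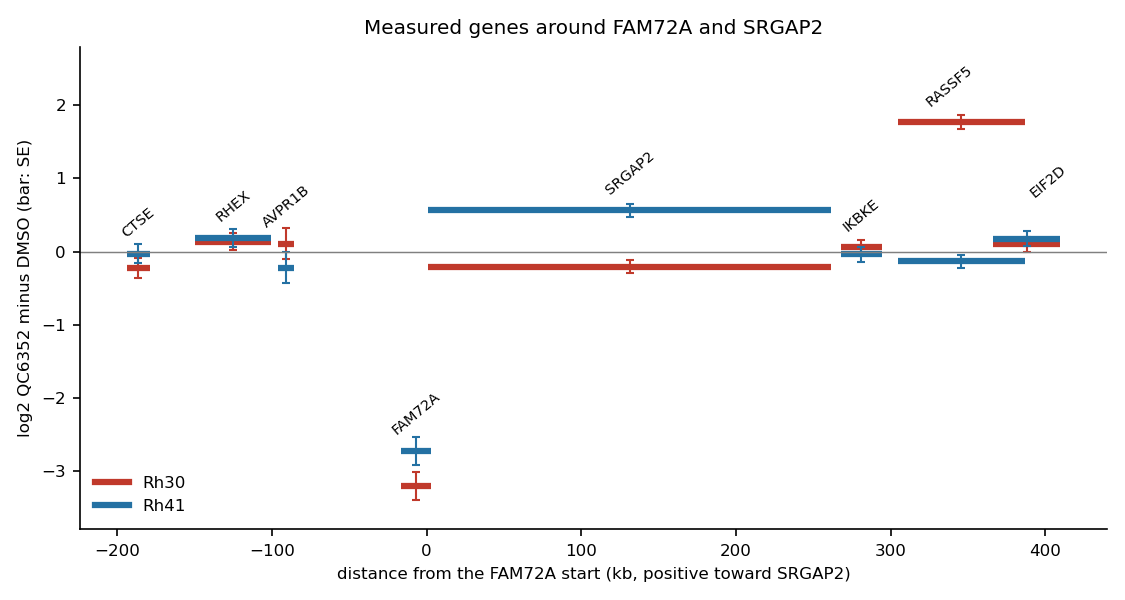
Log2 difference between QC6352 and DMSO (vertical axis, bars of 1 SE at the middle of each gene) for FAM72A, SRGAP2 and the 3 nearest measured genes on either side, drawn at their distance from the FAM72A start in kb. FAM72A lies at -3.21 in Rh30 and -2.73 in Rh41, while SRGAP2 beside it lies at -0.21 and 0.56.

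Genes of base excision repair, the pathway UNG opens by cutting out uracil, moved in both directions with QC6352. Of 23 measured, 6 rose and 8 fell in Rh30 (median difference -0.08 against 0.05 over all genes), and 4 rose and 2 fell in Rh41 (-0.03 against 0.02). These are 26.1% and 34.8% in Rh30 and 17.4% and 8.7% in Rh41, beside 19.9% higher and 16.5% lower among all genes in Rh30 and 10.9% and 8.8% in Rh41. UNG itself differed by 0.26 ± 0.11 SE in Rh30 (limma adjusted p = 0.0665) and by -0.08 ± 0.11 in Rh41 (adjusted p = 0.710). APEX1, the endonuclease that cuts abasic sites, fell by 1.02 ± 0.11 and 0.78 ± 0.11. MBD4, a glycosylase for mismatched thymine and uracil, rose by 1.00 ± 0.10 in Rh30 and 0.33 ± 0.10 in Rh41, and DUT, which keeps uracil out of DNA, fell by 0.63 ± 0.10 and 0.59 ± 0.10. NEIL3, another glycosylase, rose by 0.57 ± 0.11 and 0.53 ± 0.11.

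Mismatch repair genes correct replication errors and can also act on deaminated bases. Of 15 measured, 9 rose and 1 fell with QC6352 in Rh30 (median 0.30 against 0.05), and 3 rose and 2 fell in Rh41 (0.12 against 0.02). The shares were 60% and 6.7% in Rh30, beside 19.9% and 16.5% of all genes, and 20% and 13.3% in Rh41, beside 10.9% and 8.8%. The 1 that fell in Rh30 was RPA3, which differed by -2.79 ± 0.16 SE there (limma adjusted p = 1.01e-10) and by -2.16 ± 0.16 in Rh41 (adjusted p = 1.97e-08). EXO1, the exonuclease of this pathway, rose by 1.04 ± 0.14 and 0.50 ± 0.14. These lists, like the members, were chosen with results of these arrays known.

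SRGAP proteins act with Slit ligands, Robo receptors and cytoskeletal partners. Of 18 measured, 1 rose and 6 fell in Rh30, and 1 rose and 3 fell in Rh41, with medians of -0.05 and 0.04 against 0.05 and 0.02 over all genes. The shares were 5.6% and 33.3% in Rh30, beside 19.9% and 16.5% of all genes, and 5.6% and 16.7% in Rh41, beside 10.9% and 8.8%. ROBO1, a Slit receptor, fell by 3.02 ± 0.12 SE in Rh30 (limma adjusted p = 7.73e-13) and 0.91 ± 0.12 in Rh41 (adjusted p = 2.00e-05), and the adaptor gene NCK2 fell by 0.84 ± 0.11 and 0.37 ± 0.11. Of 20 genes of other F-BAR proteins, the membrane-bending class of SRGAP2, 7 rose and 5 fell in Rh30 and 1 rose and 2 fell in Rh41, which are 35.0% and 25.0%, and 5% and 10%, beside those shares of all genes. The tyrosine kinase gene FER fell by 2.35 ± 0.12 in Rh30 (adjusted p = 2.48e-11) and differed by -0.12 ± 0.12 in Rh41 (adjusted p = 0.602). FCHSD2 fell by 1.83 ± 0.09 and 0.35 ± 0.09, and FCHO2 rose by 0.68 ± 0.19 and 0.82 ± 0.19.

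Genes of dividing cells, in which FAM72 genes are known to be expressed, moved both ways with QC6352 in Rh30 and more of them fell than rose in Rh41. Of 33 proliferation genes, 9 rose and 8 fell in Rh30 (median -0.12 against 0.05), and 2 rose and 8 fell in Rh41 (-0.06 against 0.02). The shares were 27.3% and 24.2% in Rh30, beside 19.9% and 16.5% of all genes, and 6.1% and 24.2% in Rh41, beside 10.9% and 8.8%. PLK1, a mitotic kinase, fell by 0.81 ± 0.08 SE and 0.70 ± 0.08, and CDC20, an activator of the anaphase-promoting complex, fell by 0.74 ± 0.09 and 0.76 ± 0.09. CCNE2, a cyclin of the G1/S transition, rose by 1.26 ± 0.13 and 0.53 ± 0.13. CENPE, a kinetochore motor, rose by 1.14 ± 0.12 in Rh30 (limma adjusted p = 2.27e-07) and differed by -0.19 ± 0.12 in Rh41 (adjusted p = 0.296).

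With the KDM4B hairpin, in whose arrays FAM72D was lower, 10 of the 33 proliferation genes fell and 0 rose, beside 6.31% and 5.26% of all genes. At an unadjusted limma p under 0.05 these counts were 14 and 0. The share of all genes at that unadjusted level was not counted, so the unadjusted counts here have nothing beside them. TOP2A, a topoisomerase of dividing cells, fell by 1.24 ± 0.12 SE (adjusted p = 2.62e-06) and CCNE2 by 0.89 ± 0.16 (adjusted p = 0.000987). The part of this list in the FAM72 differences was not tested. Of 23 base excision genes 5 fell and 0 rose (9 and 1 at an unadjusted p under 0.05), among them XRCC1, a scaffold protein, by 0.50 ± 0.11, and NTHL1, a glycosylase, by 0.54 ± 0.14. Of 15 mismatch repair genes 3 fell and 0 rose (6 and 1 unadjusted), among them RFC1, by 0.85 ± 0.12, and RPA3, by 0.83 ± 0.20. UNG differed by 0.25 ± 0.13 (adjusted p = 0.257). Of the Slit and Robo list 4 fell and 1 rose, among them CDC42, a small GTPase, by 0.62 ± 0.12, and of the F-BAR list 2 fell and 2 rose, with PSTPIP2 at -1.57 ± 0.29 and ARHGAP29 at 0.86 ± 0.15.

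With siKDM4C 2 of the 109 genes in these 5 lists passed the threshold, beside 0.458% of all genes. An unadjusted limma p under 0.05 was reached by 19, and the share of all genes at that level was not counted. ARHGAP29, of the F-BAR list, rose by 1.01 ± 0.15 SE (adjusted p = 0.00496) and CCNE2 by 0.90 ± 0.16 (adjusted p = 0.0156). UNG differed by -0.20 ± 0.13 (adjusted p = 0.533). Of the other KDM4 genes, KDM4A rose with QC6352 by 0.49 ± 0.10 in Rh30 and 0.51 ± 0.10 in Rh41, and KDM4D was lower. In Rh30 with QC6352 KDM4D was at 3.89 to 4.19 log2, where background medians reach 4.01, so its difference of -0.80 ± 0.23 from DMSO (4.56 to 5.18) has its lower side near background. In Rh41 it fell by 0.95 ± 0.23, from 6.03 to 6.34 to 4.83 to 5.61. KDM4B and KDM4C differed with QC6352 by -0.19 and 0.11 in Rh30 and by -0.34 and 0.43 in Rh41, with adjusted p of 0.488, 0.622, 0.252 and 0.0583.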

How the data were processed

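Total RNA of Rh30 and Rh41 was extracted with a spin column kit and labelled from 125 ng by the Whole Transcript Plus assay for Clariom S arrays, per the labels' protocols. The log2 signals per probe set were used as deposited by the authors, and they run from 2.22 to 14.22. GCOS is the tool that the submitters' processing notes name, and its version, like the methods for background, summary and normalization, is not given in the sources used here. Intensities without counts give no sequencing depth, so the number of arrays, 2 or 3 a group, limits the precision.

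Of 24351 probe sets, 17709 carried 1 gene symbol, all matched to the gene table by Entrez identifier, 0 carried several and 6642 none. The probe set with the highest mean stood for a gene, which left out 22 and gave 17687 genes. A single model of the 8 group means by title (siKDM4C replicate 2 by source name) was fitted to all 20 arrays with lmFit and eBayes of limma 3.58.1 (R 4.3.3), which left 12 residual degrees of freedom. Benjamini-Hochberg adjustment covered the 17687 genes, the threshold was 0.05, and each fold change is a difference of group means with its standard error (SE). The code was tested on simulated data.

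The members, the gene lists and the named genes were chosen with earlier results of these data known. Named genes were the FAM72, SRGAP and KDM4 genes, UNG, up to 3 of each list with the largest change past the threshold in a comparison, the 3 nearest measured genes on each side of a FAM72 gene or SRGAP2, and the 6 most correlated genes. Not all of them are printed, and genes printed for both lines follow the comparison that named them. The promoter windows are RefSeq's (GRCh38.p14). The alternatives were quantile normalization, median centring, leaving out the lowest 40% of genes by mean, eBayes with trend and robust, only the arrays compared, groups by sample name, a block for the replicate number, and each array left out in turn. After the data were seen, a fit of the 10 arrays with agreeing labels, a block with the siKDM4C numbers crossed and the difference of the drug responses between the lines were added.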

Additional observations from a re-analysis of the deposited data

Results flagged for a closer look

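The response to QC6352 in Rh41 minus that in Rh30 was compared for 28 genes in the limma fit and with adjustment over all 17687 genes, and 11 passed the threshold, where 20% of all genes did. The 28 were SRGAP1, SRGAP2B, SRGAP2C, SRGAP3, UNG, the 4 KDM4 genes, 15 genes of the lists described with QC6352 and the neighbours NBPF15, GPR89A, RASSF5 and IKBKE. The 15 list genes were named for their large changes with QC6352, and the difference between the lines is formed from the same changes. That choice can raise the count, so nothing is read from 11 of 28 beside 20% of all genes. Genes named for their correlation with FAM72 or SRGAP2, and those named with the knockdowns alone, were not compared. The comparison was chosen after the data were seen and follows the titles of the Rh30 arrays, with 3 arrays in each of the 4 groups.

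Among the SRGAP genes the difference was 1.27 for SRGAP1 (adjusted p = 0.000355), 0.36 for SRGAP2B (adjusted p = 0.0477) and 0.42 for SRGAP2C (adjusted p = 0.0252). SRGAP3 differed by 0.10 (adjusted p = 0.779). Among the Slit and Robo and the F-BAR genes, the difference was 2.11 for ROBO1 (adjusted p = 7.58e-08), 0.47 for NCK2 (adjusted p = 0.0398), 2.23 for FER (adjusted p = 4.57e-08) and 1.48 for FCHSD2 (adjusted p = 1.00e-07), all of which fell more in Rh30.

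Among repair and proliferation genes it was -0.68 for MBD4 (adjusted p = 0.00160), -0.73 for CCNE2 (adjusted p = 0.00817) and -1.33 for CENPE (adjusted p = 1.19e-05), which were higher with QC6352 in Rh30. RASSF5, beyond SRGAP2, gave -1.91 (adjusted p = 1.65e-08). RPA3, whose values followed the FAM72 mean most closely after CLCN5, gave 0.63 (adjusted p = 0.0563) and did not pass.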

How the results depend on the processing

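Quantile normalization, median centring, the other variance model, the filter and the compared arrays alone kept the direction of the FAM72 differences with QC6352 in both lines and of the SRGAP2 difference in Rh41. By sample name the Rh30 differences with QC6352 turned to 0.24 (FAM72A), 0.33 (FAM72B), 0.19 (FAM72C), 0.35 (FAM72D), 0.093 (SRGAP2) and 0.023 (SRGAP1). That grouping left 725 genes called for the KDM4B hairpin, 0 for siKDM4C, 89 for QC6352 in Rh30 and 1537 in Rh41, and FAM72D with the hairpin stayed at -0.64 (adjusted p = 0.645).

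For the hairpin, FAM72A (-0.69) and FAM72B (-0.62) passed the threshold with the 10 arrays of agreeing labels alone (adjusted p = 0.0220 and 0.0312), with trend and robust (0.0179 and 0.0165) and with the lowest 40% left out (0.0373 and 0.0367). FAM72D with siKDM4C, at 0.55, passed with trend and robust (adjusted p = 0.0180) and with the filter (0.0372). With the compared arrays alone, FAM72B between the lines in DMSO passed at 0.33 (adjusted p = 0.0380). SRGAP2 between the lines turned to -0.23 with quantile normalization, and SRGAP2C to -0.24 with it and -0.23 with centring. The hairpin count was 826 for the compared arrays alone, against 2047, and the siKDM4C count was 0 for these arrays, 438 with trend and robust and 341 with the filter, against 81. The causes were not tested, except that fewer genes or arrays enter some of these fits.

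With 1 array left out in turn, the hairpin difference ran from -0.95 to -0.42 for FAM72A, from -0.87 to -0.38 for FAM72B and from -0.71 to -0.57 for FAM72D. With siKDM4C it ran from 0.33 to 0.92 for FAM72B and from 0.36 to 0.73 for FAM72D, and with QC6352 in Rh41 from -2.67 to -2.45 for FAM72D. The hairpin count ran from 1039 to 1557, with 1039 without shKDM4B replicate 1, 1095 without its replicate 2 and 1179 without shControl replicate 1. The siKDM4C count ran from 8 to 1789, with 1789 without siKDM4C replicate 1, 9 without its replicate 2, and 14 and 8 without siControl replicates 1 and 2. A lone array left in a group is assumed to vary like the other groups.

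Same-numbered arrays deviated from their group means with correlations of 0.086 (hairpin), -0.215 (siKDM4C), 0.061 to 0.26 (QC6352 in Rh30) and -0.19 to -0.059 (Rh41), so the numbers were not shown to pair the arrays. With the replicate number as a block, 2019, 76, 6438, 3451 and 10186 genes were called for the hairpin, siKDM4C, QC6352 in Rh30, QC6352 in Rh41 and the lines in DMSO, and 84 for siKDM4C with its numbers crossed. The block changed no call of FAM72A, FAM72B, FAM72D or SRGAP2. The array values near 4 log2 are at background, and the dimmest of the SRGAP genes was SRGAP3, at 4.70 to 6.10.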
